A study of Mus musculus with 44 samples.

Results

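Apoptosis of granulosa cells, the somatic cells that surround the oocyte in the ovarian follicle, was examined through 10 genes that regulate it: *Bcl2*, *Bcl2l1*, *Mcl1*, *Bax*, *Bak1*, *Bcl2l11*, *Bbc3*, *Pmaip1*, *Xiap* and *Birc6*. They were chosen by name for their known roles, with earlier results of these data known. They are 10 of the 25865 genes with values in the expression table, and all 10 were among the 12597 genes tested. Mouse granulosa cells were cultured for 4 h with GDF9, a growth factor secreted by the oocyte, at 100 ng/mL, or with vehicle. RNA-seq covered 2 libraries of each treatment, and CUT&RUN, which maps where a protein or histone mark sits on DNA, covered 32 peak lists used here. The question was whether GDF9 changed the mRNA of these genes within 4 h and where SMAD proteins lay around them.

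The RNA came from Smad3 PA/PA cells, in which both *Smad3* copies carry a PA tag at the N-terminus of the protein. This genotype is given in the study's methods and not in the sample labels. CUT&RUN used these Smad3 PA/PA cells (called Smad3PA here), with antibodies against the PA tag, SMAD2, SMAD4 and H3K27ac, and Smad2 HA/+ cells (called Smad2HA here), in which 1 *Smad2* copy carries an HA tag at the C-terminus, with antibodies against the HA tag, SMAD2, SMAD3 and H3K27ac. Each combination of line, antibody and treatment had 2 peak lists. The mice were 3 to 4 weeks old, of mixed C57BL/6J and 129S5/SvEvBrd background and primed with pregnant mare serum gonadotropin, and cells of several mice were pooled. Both tags are knock-ins in every tissue, so GDF9 and vehicle cells alike carried them, and no untagged cells were used here.

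Cells that die by the mitochondrial route of apoptosis are tipped into it by the balance within the BCL2 family. Pro-survival members (BCL2, BCL-XL and MCL1) hold in check the effectors BAX and BAK, which perforate the outer mitochondrial membrane, and BH3-only proteins such as BIM, PUMA and NOXA relieve that restraint. Downstream, inhibitor of apoptosis proteins (IAPs) restrain caspases. Most follicles are lost by atresia, in which granulosa cell apoptosis is an early event, and survival factors from the oocyte and gonadotropins oppose it.

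The upstream bases of 3 members are shown here because peaks lay over their starts and because the results below turn on them. *Birc6* was the member whose mRNA rose, and *Bcl2l11* had SMAD peaks without H3K27ac. Among the members, *Mcl1* had the strongest SMAD3 peak that reached within 3 kb of a start, though its highest point can lie away from the start. Each run holds the 250 bases before the first start in RefSeq (GRCm38.p6, plus strand, 5′ to 3′), at chr17:74528045-74528294, chr3:95658471-95658720 and chr2:128125788-128126037 in this order. Capitals mark CAGAC, a sequence bound by SMAD3 and SMAD4 and read as GTCTG on the other strand, or GGCGC, a GC-rich sequence that SMADs also bind and that reads as GCGCC on the other strand.
Birc6: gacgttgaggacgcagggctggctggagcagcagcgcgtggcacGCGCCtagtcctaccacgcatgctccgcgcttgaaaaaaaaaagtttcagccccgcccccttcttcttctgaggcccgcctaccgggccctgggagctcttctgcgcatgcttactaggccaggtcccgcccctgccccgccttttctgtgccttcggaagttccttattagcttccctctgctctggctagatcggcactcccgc
Mcl1: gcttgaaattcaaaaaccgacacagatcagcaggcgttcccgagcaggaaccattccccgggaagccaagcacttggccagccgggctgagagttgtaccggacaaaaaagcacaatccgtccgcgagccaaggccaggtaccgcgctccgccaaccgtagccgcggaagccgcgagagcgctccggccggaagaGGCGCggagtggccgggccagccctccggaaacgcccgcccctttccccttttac
Bcl2l11: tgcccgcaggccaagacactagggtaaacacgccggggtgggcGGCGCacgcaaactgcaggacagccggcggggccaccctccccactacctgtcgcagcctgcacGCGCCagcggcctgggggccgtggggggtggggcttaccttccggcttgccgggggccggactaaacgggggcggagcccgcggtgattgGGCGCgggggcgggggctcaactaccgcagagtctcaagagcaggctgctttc
None of the 3 runs held CAGAC, and they held 1, 1 and 3 matches to GGCGC in this order. *Bcl2l11* has a second RefSeq start, and the window before it, chr2:128127325-128127574, held 1 match to CAGAC and 6 to GGCGC. Over 32851 RefSeq promoters of the same length, 42.2% held CAGAC and 32.02% held GGCGC. RefSeq promoters were matched for 9 members, with 16 windows between them, and 6 windows of 5 members held CAGAC while 10 windows of 7 members held GGCGC. A match is a run of letters and not a measured site.

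The members spanned a wide range of levels (the plot of normalized counts by member). Per kilobase of RefSeq exons, *Bax* had the highest mean level, 1596 normalized counts per kb with GDF9 and 1572 with vehicle, followed by *Mcl1* (794 and 811), *Bak1* (572 and 562), *Bcl2l1* (240 and 257), *Birc6* (176 and 147), *Xiap* (120 and 130), *Bbc3* (38.4 and 36.8), *Bcl2* (9.58 and 11.98), *Pmaip1* (6.86 and 6.95) and *Bcl2l11* (3.81 and 5.09). Among neighbours in this order, only *Pmaip1* (5.68 to 8.22 over the 4 libraries) and *Bcl2l11* (3.66 to 5.83) overlapped. The mRNAs of the effectors and of *Mcl1* were thus among the abundant ones of the 10, and those of *Bcl2* and the BH3-only genes were the scarce ones.

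**Figure D1:**
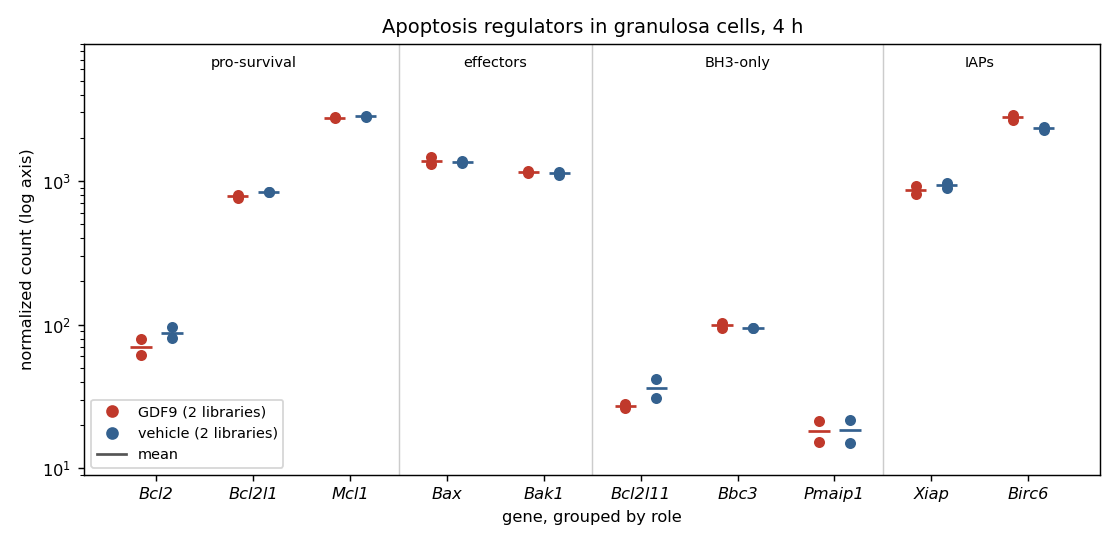
Normalized counts (log axis) of the 10 genes in the 2 GDF9 libraries (red) and the 2 vehicle libraries (blue), with the mean of each pair as a line. *Birc6* lies between 2678 and 2864 with GDF9 and between 2275 and 2372 with vehicle, and *Pmaip1* is the lowest at 15.1 to 21.8.

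Of the 10 genes, 1 rose with GDF9 and 0 fell, where calls were made in limma on log2(normalized count + 1), at an adjusted p below 0.05 with a log2 difference of more than 0.18 either way. Over all tested genes, 307 were called higher (2.44%) and 89 lower (0.707%). *Birc6* was the gene that rose, and the other 9 did not pass the test. Members lower at an unadjusted p under 0.05 in limma numbered 0, and edgeR and DESeq2 on recovered reads also called 0 lower. Both GDF9 libraries lay above both vehicle libraries for 1 member, against 22.0% of tested genes, and below them for 4 members, against 23.2% of tested genes.

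Among the pro-survival genes, *Bcl2*, whose product gave the family its name, had normalized counts of 61.4 and 79.3 in GDF9 cells and 80.4 and 95.7 in vehicle cells. The GDF9 libraries were lower without overlap, by a narrow margin, and the log2 fold change was -0.32 ± 0.18 (SE, n = 2 each, 95% interval -0.68 to 0.03, limma adjusted p = 0.379). With single libraries left out it lay between -0.51 (without GDF9 replicate 2) and -0.14 (without GDF9 replicate 1). *Bcl2l1*, which encodes BCL-XL, had 799.6 and 762 in GDF9 cells and 839.5 and 832 in vehicle cells. Here too the pairs did not overlap, and the log2 fold change was -0.10 ± 0.06 (95% interval -0.22 to 0.02, limma adjusted p = 0.446, and -0.13 to -0.06 with single libraries left out). *Mcl1*, whose short-lived product sequesters BAK and BIM, had 2757 and 2780 in GDF9 cells and 2844 and 2812 in vehicle cells. Its log2 fold change of -0.03 ± 0.04 had the narrowest interval of the 10 genes, -0.11 to 0.05 (limma adjusted p = 0.784), so that a change beyond the limit of a call lay outside it. None of the 3 pro-survival mRNAs was called, and all 3 were on the lower side with GDF9.

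The effectors gave overlapping groups. *Bax* had 1312 and 1461 normalized counts in GDF9 cells and 1387 and 1345 in vehicle cells, and *Bak1* had 1171 and 1143 in GDF9 cells and 1109 and 1164 in vehicle cells. Their log2 fold changes were 0.02 (95% interval -0.09 to 0.13, limma adjusted p = 0.911) and 0.03 (95% interval -0.08 to 0.13, limma adjusted p = 0.874). For both effectors a change past the limit of a call, in either direction, lay outside the interval.

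The BH3-only genes were counted with few reads, and their intervals were wide. *Bcl2l11*, which encodes BIM, had 28.2 and 26.1 normalized counts in GDF9 cells and 31.0 and 41.6 in vehicle cells, from 27 to 47 reads a library. The GDF9 pair was lower without overlap, the log2 fold change was -0.39 ± 0.26 (SE, n = 2 each) and its interval ran from -0.93 to 0.14 (limma adjusted p = 0.503). Left out in turn, single libraries moved it between -0.60 and -0.19. *Bbc3*, which encodes PUMA and is a target of p53, had 94.7 and 102.6 in GDF9 cells and 94.2 and 94.8 in vehicle cells (log2 fold change 0.06, 95% interval -0.25 to 0.37, limma adjusted p = 0.904). *Pmaip1*, which encodes NOXA, the partner of MCL1, had 15.1 and 21.3 in GDF9 cells and 21.8 and 15.1 in vehicle cells (log2 fold change -0.02, 95% interval -0.71 to 0.68, limma adjusted p = 0.989). At 15 to 22 reads a library, even a change of *Pmaip1* well past the limit of a call was not detectable.

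The 2 IAP genes differed from each other. *Birc6*, which encodes BRUCE (also called Apollon), a giant ubiquitin ligase that binds caspases and the IAP antagonist SMAC, had 2864 and 2678 normalized counts in GDF9 cells and 2372 and 2275 in vehicle cells. Its pairs did not overlap, and the mean was 2771 ± 131 with GDF9 and 2324 ± 68.0 with vehicle (SD, n = 2 each). The log2 fold change was 0.25 ± 0.04 (SE, 95% interval 0.16 to 0.34, limma adjusted p = 0.000387), and 245 of the 307 genes called higher had a larger one. *Xiap*, which encodes the IAP that inhibits caspases directly, had 922 and 808 in GDF9 cells and 975 and 897 in vehicle cells. Those pairs overlapped, and its log2 fold change was -0.12 ± 0.06 (95% interval -0.25 to 0.01, limma adjusted p = 0.394). Without GDF9 replicate 1 that of *Xiap* was -0.21 (limma adjusted p = 0.0578), and without GDF9 replicate 2 it was -0.02 (limma adjusted p = 0.930). *Birc6* was called in each of the 9 alternative fits with 2 libraries a group, with adjusted p of 0.0241 at most. It was also called in the 4 fits that leave out a library (log2 fold change 0.21 to 0.30), where the lone library of a group is assumed to vary like the other group.

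**Figure D2:**
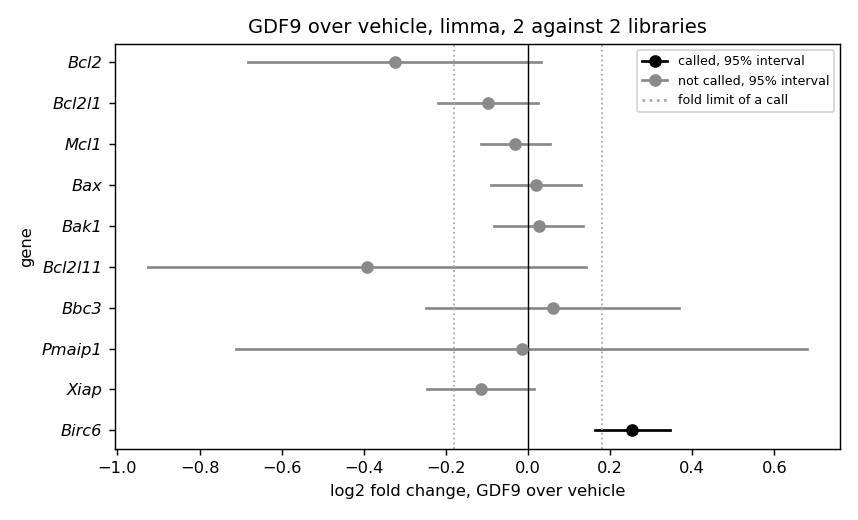
Log2 fold change of GDF9 over vehicle for the 10 genes with its 95% interval from limma. *Birc6* (black, 0.25) is the called gene, the other 9 (grey) have intervals that include 0, and the widest intervals belong to *Bcl2l11* and *Pmaip1*.

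Other values moved with treatment beside the *Birc6* result. *Birc6* has 15.8 kb of RefSeq exons, the longest of the 10, and of the 339 tested genes with exons of at least 10 kb, 40 were called higher (11.8%) and 1 lower. Their median log2 fold change was 0.06, against -0.01 over all tested genes. *Malat1*, a nuclear RNA, took 0.282% and 0.265% of counts in GDF9 libraries and 0.108% and 0.110% in vehicle libraries, and mitochondrially encoded genes took 3.38% and 3.07% in GDF9 libraries and 2.37% and 2.35% in vehicle libraries. The part of transcript length or of these RNA classes in the *Birc6* difference was not tested.

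Ratios within a library set the arms of the pathway against each other. Ratios of *Bcl2* to *Bax* were 0.0468 and 0.0543 in GDF9 cells and 0.0579 and 0.0711 in vehicle cells, so that both GDF9 values were lower. For *Bcl2l1* to *Bax* they were 0.609 and 0.522 in GDF9 cells and 0.605 and 0.619 in vehicle cells, which overlapped. For *Mcl1* to *Bcl2l11* they were 97.8 and 106 in GDF9 cells and 91.7 and 67.5 in vehicle cells, where both GDF9 values were higher. These are descriptions: the smallest two-sided p that an exact permutation test of 2 against 2 libraries allows is 0.333, and the last ratio rests on the few reads of *Bcl2l11*. The first and the last of these ratios thus lay on opposite sides of their vehicle values.

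Of 67 other apoptosis genes in 8 lists, 61 were tested, 2 were called higher (3.28%, near the 2.44% of all tested genes) and 0 lower in limma (0.707% of all tested genes), and their median log2 fold change was -0.04, beside -0.01 over all tested genes and -0.02 over the 10 members. *Mdm4*, which encodes a p53 inhibitor, had 382 and 331 normalized counts in GDF9 cells and 250.4 and 259.6 in vehicle cells. It rose by 0.48 ± 0.09 on the log2 scale (SE, n = 2 each, limma adjusted p = 0.00127). *Ppp1r15a*, which encodes the stress-induced phosphatase subunit GADD34, had 607 and 617 in GDF9 cells and 521 and 506 in vehicle cells. It rose by 0.25 ± 0.07 (limma adjusted p = 0.0280). At an unadjusted p under 0.05 in limma 5 of these genes were lower and 5 higher, and edgeR and DESeq2 likewise called 0 lower. In DESeq2 on the recovered reads neither *Mdm4* (log2 fold change 0.49, adjusted p = 0.0715) nor *Ppp1r15a* (0.26, adjusted p = 0.501) was called. *Ppp1r15a* also lost its call with no filter on low values (limma adjusted p = 0.0959), without GDF9 replicate 2 (log2 fold change 0.24), without vehicle replicate 1 (0.27) and without vehicle replicate 2 (0.23).

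By list, the p53 list had 1 call among 12 tested genes (*Mdm4*), the integrated stress response list had 1 among 5 (*Ppp1r15a*), with a median log2 fold change of 0.23 and sums of 1986 and 1941 normalized counts in GDF9 cells and 1719 and 1802 in vehicle cells, and the lists of pro-survival BCL2 relatives (1 tested of 5), BH3-only and BAX-like genes (7 tested), IAPs and their antagonists (6), apoptosome and caspases (11), death receptors (9) and FOXO, PI3K and AKT signaling (10) had 0. The untested genes were *Bcl2a1a*, *Bcl2a1b*, *Bcl2a1d*, *Bcl2l10*, *Hrk* and *Fasl*, and the *Bcl2a1* copies are near-identical, so that their reads cannot be assigned with certainty. The most abundant gene of each list gave *Bcl2l2* (BCL-W, log2 fold change -0.01), *Bnip3l* (-0.09), *Diablo*, which encodes SMAC (0.08), *Casp6*, an executioner caspase (-0.19, adjusted p = 0.0906 in limma), *Tnfrsf1a*, a TNF receptor (-0.08), *Ccng1*, a p53 target (-0.11), *Sgk1*, a kinase downstream of PI3K (0.15) and *Atf4*, the stress response factor (0.09). Of these 8, *Sgk1* passed the adjusted p (0.00957 in limma) but not the fold limit, with 7875 and 7650 normalized counts in GDF9 cells and 6932 and 7067 in vehicle cells.

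The libraries held 8827825 to 11416005 reads in genes. Of the granulosa markers, *Inha* (13383 to 14887 normalized counts over the 4 libraries), *Inhba* (10768 to 12060), *Foxl2* and *Fshr* were present, while *Amh* and *Cyp19a1*, which also mark these cells, were at 2.90 or below in every library. Of this list of 11 genes, *Fst*, *Hsd17b1* and *Esr2* were called higher and *Nr5a2* lower. The summed leukocyte markers were 85.6 and 88.0 in GDF9 libraries and 66.6 and 76.2 in vehicle libraries, with the defining marker *Ptprc* at 2.66 or below, and the summed surface epithelium markers were 807 and 761 in GDF9 libraries and 717 and 751 in vehicle libraries. Endothelial markers summed to 20.1 and 34.8 in GDF9 libraries and 36.8 and 39.9 in vehicle libraries. The 4 theca markers summed to 7986 and 8253 in GDF9 libraries and 7849 and 7848 in vehicle libraries, nearly all of it *Star*, while *Cyp17a1* and *Insl3* were near 0. The stroma markers summed to 1498 and 1484 in GDF9 libraries and 1525 and 1495 in vehicle libraries, mostly *Col1a1*, and within them *Mfap5* had 18.1 and 21.3 with GDF9 and 5.74 and 9.75 with vehicle (adjusted p = 0.0747 in limma). The oocyte markers summed to 28.2 and 46.4 in GDF9 libraries and 35.6 and 40.8 in vehicle libraries. The part of these cells in the results was not tested, and in bulk RNA fewer cells of a type and less RNA per cell cannot be told apart.

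SMAD proteins carry the GDF9 signal into the nucleus, and peaks were sought from 20 kb before to 20 kb after each gene, windows of 45.2 to 216 kb. A region was a place where peaks of both replicates overlapped. In Smad2HA cells, 9 of the 10 members had a region of HA, SMAD2 or SMAD3 with GDF9 (tested genes: 95.9%), and 9 with vehicle (97.3%). H3K27ac, the acetylation that marks active promoters and enhancers, gave a region at 8 members with GDF9 (91.7%) and 8 with vehicle (89.1%). In Smad3PA cells, 3 members had a region of PA, SMAD2 or SMAD4 with GDF9 (54.0%) and 5 with vehicle (42.2%), and 8 had H3K27ac with GDF9 (85.8%) and 8 with vehicle (86.5%). Over 85% of tested genes thus had such a region in Smad2HA cells, or H3K27ac in Smad3PA cells, and about 1 in 2 had a SMAD or PA region in Smad3PA cells. The members' counts are read against those shares.

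**Figure D3:**
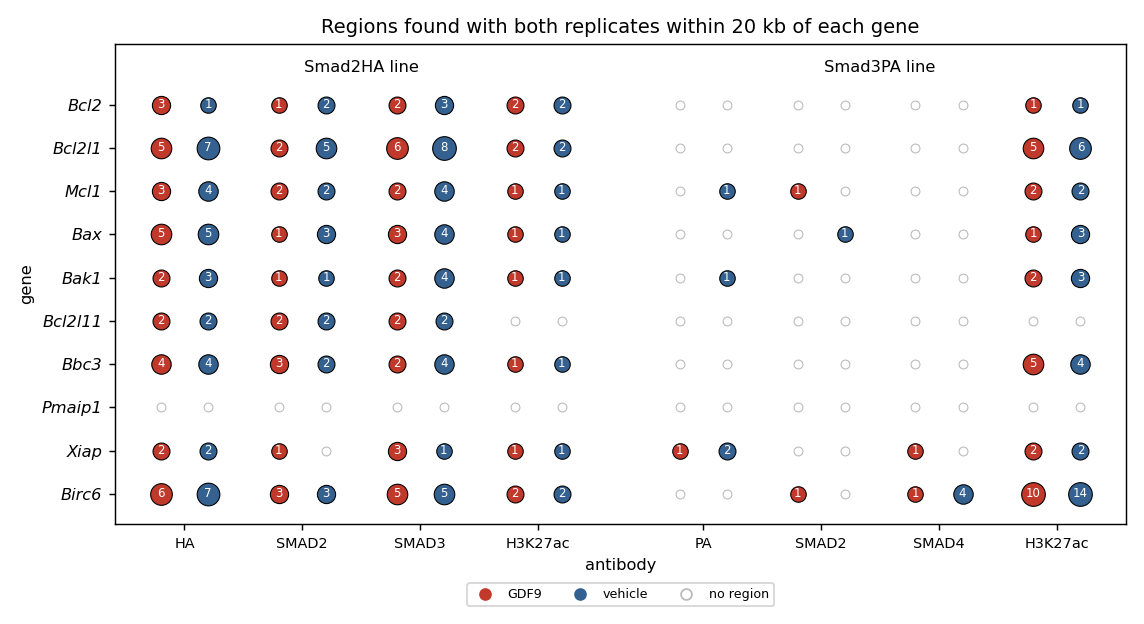
Number of regions found with both replicates within 20 kb of each gene, by line, antibody and treatment (red GDF9, blue vehicle, open circle none). Regions that also span the start of a neighbouring gene are counted. *Pmaip1* has no region with any antibody, *Bcl2l11* has SMAD regions in the Smad2HA line but none of H3K27ac, and the 3 SMAD or tag antibodies of the Smad3PA line mark few members.

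Within 3 kb of a start, 8 members had a SMAD or HA region in Smad2HA cells with GDF9 (82.8% of tested genes) and 9 with vehicle (87.3%), and 8 had H3K27ac with GDF9 (80.6%) and 8 with vehicle (78.6%). In Smad3PA cells, 1 member, *Birc6*, had a SMAD or PA region there with GDF9 (21.7%) and 0 had one with vehicle (12.0%), while 7 had H3K27ac with GDF9 (69.3%) and 7 with vehicle (69.4%). *Pmaip1* had no region of either kind in its window. Summed over the members, HA regions numbered 32 with GDF9 and 35 with vehicle, of which 3.12% and 8.57% met no peak of the other treatment, against 8.56% and 9.78% of all HA regions. For SMAD2 in these cells 0 of 16 regions with GDF9 and 4 of 20 with vehicle met none (22.8% and 19.8% of all regions), and for SMAD3 1 of 27 with GDF9 and 1 of 35 with vehicle (8.78% and 13.0% of all regions). Some of the regions summed here lay at starts of neighbours and cannot be assigned to the member. Overlapping peaks at chr2:152732984-152744932 and chr2:152846928-152849830, counted for *Bcl2l1*, spanned starts of *Id1* and *Tpx2*. Those at chr17:74716153-74718922, counted for *Birc6*, spanned a start of *Ttc27*.

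At the start of *Birc6*, the member whose mRNA was called, SMAD2 peaks of both GDF9 replicates formed a region at chr17:74527380-74528921, which 1 vehicle peak also met, and SMAD4 peaks of both GDF9 replicates formed a region at chr17:74527911-74528594, which no vehicle peak met, as for 3734 of the 9185 SMAD4 regions with GDF9 (40.7%). Both regions, each the union of the peaks of 2 replicates, spanned the start and the bases printed above. For SMAD2, the peak of GDF9 replicate 1 spanned the start. That of GDF9 replicate 2 ran from -781 to -86 bp relative to it, and so ended within the printed bases. Their highest signal, spike-in scaled coverage, was 1.94 and 1.33 for SMAD2 with GDF9 and 1.27 in the vehicle replicate that had a peak there, and 1.97 and 2.54 for SMAD4 with GDF9. The SMAD2 list of vehicle replicate 2 was short (23082 peaks, against 78699 to 81283 in the other 3 lists), and had no peak over the start. The SMAD2 region was not found with the strongest 50% of each list or with 50% of both peaks shared, and the SMAD4 region was. A SMAD4 peak of vehicle replicate 2 lay 1398 to 2185 bp after the start, with a signal of 1.64. With vehicle, SMAD4 regions of both replicates lay deep within or beyond the gene, at chr17:74561270-74563094, chr17:74577550-74579462, chr17:74642143-74643391 and chr17:74717023-74717885.

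**Figure D4:**
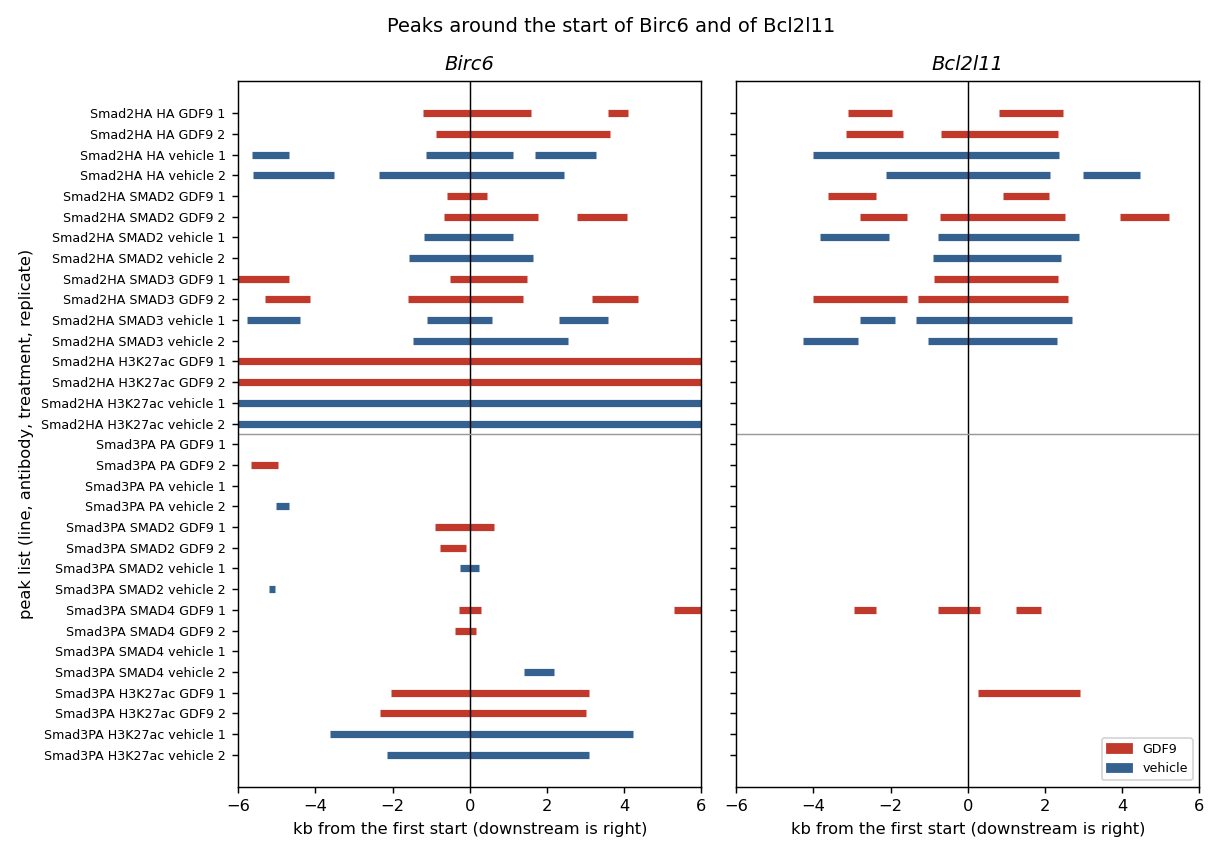
Peaks of the 32 lists within 6 kb of the first start of *Birc6* and of *Bcl2l11* (x axis in kb, red GDF9, blue vehicle). All 12 SMAD and HA lists of the Smad2HA line have a peak near both starts, the Smad3PA SMAD2 and SMAD4 lists have peaks within 1 kb of the *Birc6* start in all 4 GDF9 lists and 1 of 4 vehicle lists, and H3K27ac covers *Birc6* in all 8 lists but *Bcl2l11* in 1.

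In Smad2HA cells peaks lay over the start of *Birc6* with and without GDF9. All 12 lists of HA, SMAD2 and SMAD3 had a peak in 1 cluster there, chr17:74525947-74532661. A SMAD or HA region within 3 kb of a start was common in this line (82.8% of tested genes with GDF9, 87.3% with vehicle), and IgG was not compared. The highest HA signal within 3 kb of the start was 3.45 and 6.65 with GDF9 and 4.19 and 4.65 with vehicle, above that of each other member in the same list. Its treatments overlapped, as did those of the H3K27ac peaks over this start (35.0 and 44.8 with GDF9, 41.4 and 32.1 with vehicle). The highest HA and H3K27ac signals of peaks over this start thus did not separate between treatments in Smad2HA cells. These H3K27ac peaks were 70764 to 106770 bp long, so their maxima can lie away from the start. The *Birc6* mRNA was measured in Smad3PA cells, so these values and the mRNA come from different lines.

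Such clusters of all 12 lists lay within 3 kb of a start for 6 members (*Bcl2l1*, *Mcl1*, *Bax*, *Bcl2l11*, *Bbc3* and *Birc6*), against 50.7% of tested genes. The cluster at *Bax* also spans its neighbour *Ftl1*, and the 2 genes cannot be told apart there. Not every list had a peak of its own within 3 kb of the *Bax* start. Such a peak was absent for HA in replicate 1 of either treatment, SMAD2 in both GDF9 replicates and SMAD3 in GDF9 replicate 1. *Bcl2l11* was the member with such a cluster, chr2:128121765-128128917, and no H3K27ac region in its window in either line, a pairing found for 58 tested genes (0.463%). A single H3K27ac peak lay there, in GDF9 replicate 1 of Smad3PA cells. Over the 12 lists, the median highest point of the cluster was chr2:128127505, in the window before the second *Bcl2l11* start and not in the printed bases. The highest HA signal at *Bcl2l11* was 0.874 and 2.13 with GDF9 and 1.36 and 1.22 with vehicle. Its SMAD3 signal was 1.53 and 2.00 with GDF9 and 1.78 and 1.55 with vehicle. *Bcl2l11* also had the lowest mRNA level per kb of the 10 genes.

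For HA, 6 members had a peak near the start in all 4 lists of Smad2HA cells (*Bcl2l1*, *Mcl1*, *Bcl2l11*, *Bbc3*, *Xiap* and *Birc6*), and at 0 of them did the treatments separate, against 19.0% of tested genes with both GDF9 lists higher and 1.1% with both lower. For SMAD2 there were also 6, with *Bcl2* in place of *Xiap*, and again 0 separated, against 26.9% higher and 0.41% lower among tested genes. For SMAD3, the highest signal was lower in both GDF9 lists at 3 of 8 members, against 34.0% of tested genes. At *Bcl2* it was 0.590 and 0.599 with GDF9 and 0.767 and 0.802 with vehicle, at *Bcl2l1* 1.49 and 1.72 with GDF9 and 2.79 and 2.14 with vehicle, and at *Bak1* 1.06 and 1.32 with GDF9 and 1.45 and 1.55 with vehicle. The cluster of peaks at the *Bak1* start also holds a start of its neighbour *Ggnbp1*, and the genes cannot be told apart there. *Mcl1* had the strongest SMAD3 peak of the members in each list, 5.43 and 8.07 with GDF9 and 6.14 and 6.36 with vehicle, which overlapped. These peaks are long, and the signal need not lie at the start. Over the HA, SMAD2 and SMAD3 lists, the median highest point of the *Mcl1* cluster was chr3:95663470, past the gene end at 95663179. The share of members with SMAD3 lower in both GDF9 lists is near that of all tested genes.

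For H3K27ac, the highest signal of a peak that reached within 3 kb of a start was compared in Smad2HA cells. It was higher in both GDF9 lists at 4 of 8 members, against 32.4% of tested genes. At *Bax* the highest signal was 65.0 and 62.8 with GDF9 and 49.9 and 49.6 with vehicle, and at *Bcl2* 48.8 and 49.1 with GDF9 and 40.0 and 39.9 with vehicle. At *Bcl2l1* it was 50.8 and 44.2 with GDF9 and 42.6 and 40.9 with vehicle, and at *Mcl1* 90.1 and 84.8 with GDF9 and 78.9 and 67.1 with vehicle. In Smad3PA cells, the line the RNA came from, the same held at 1 of 7 members, *Xiap* (18.1 and 21.5 with GDF9, 14.5 and 17.3 with vehicle), against 6.37% of tested genes, and *Bax* (22.6 and 37.6 with GDF9, 28.9 and 37.6 with vehicle) overlapped. None of these 5 genes was called in RNA. The H3K27ac peaks of the Smad2HA line were long, with medians of 18.6 and 21.5 kb with GDF9 and 26.7 and 29.3 kb with vehicle. Those at the 4 members above were longer, from 79957 bp (*Bcl2l1*, GDF9 replicate 1) to 290430 bp (*Mcl1*, vehicle replicate 2). A maximum can thus lie far from the start.

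**Figure D5:**
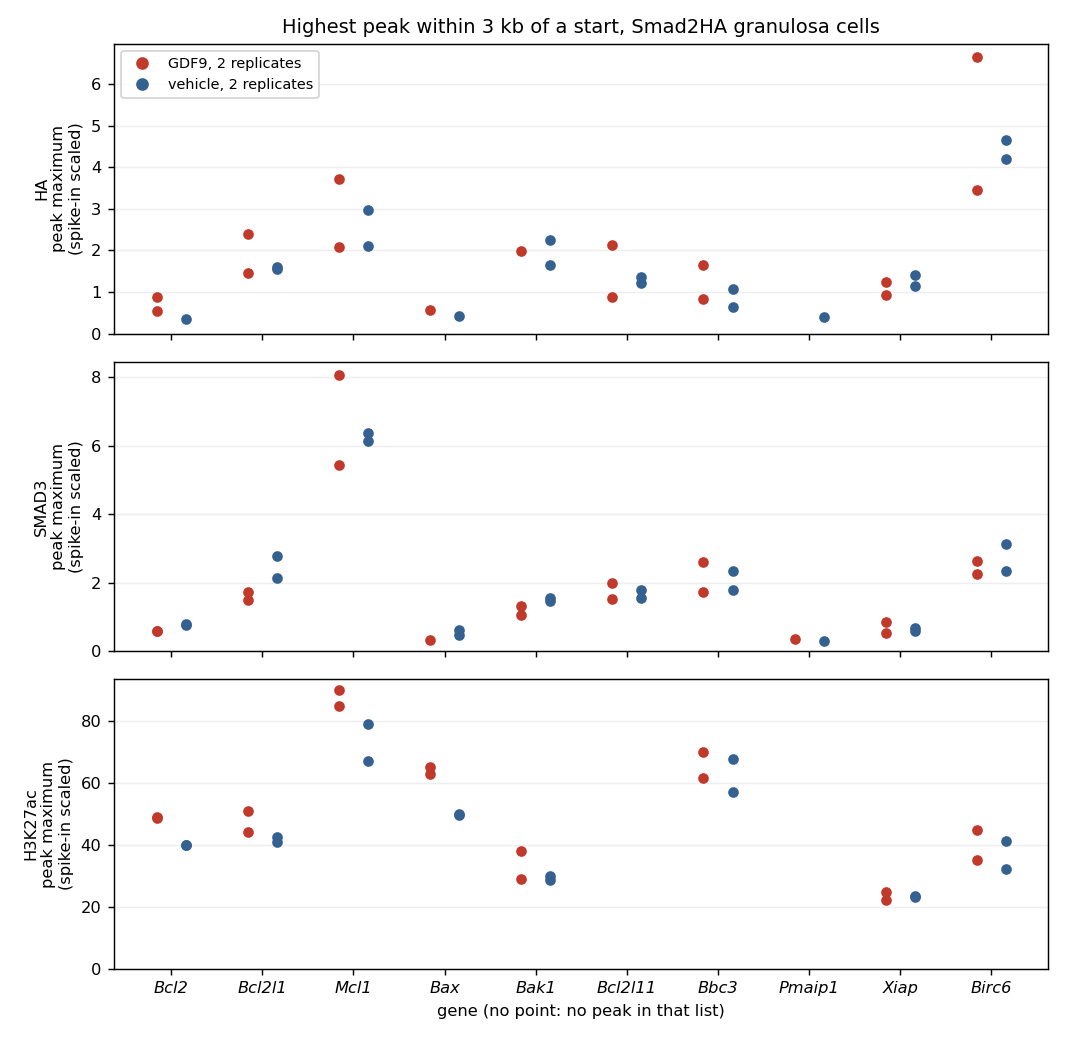
Highest signal (spike-in scaled) of peaks that reach within 3 kb of a start in Smad2HA cells, for HA, SMAD3 and H3K27ac. The 2 GDF9 lists are in red and the 2 vehicle lists in blue. *Birc6* has the highest HA signal, *Mcl1* the highest SMAD3 and H3K27ac signal, and H3K27ac lies higher with GDF9 in both lists at *Bcl2*, *Bcl2l1*, *Mcl1* and *Bax*.

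The remaining regions in Smad3PA cells were scattered and mostly far from starts. With GDF9, SMAD2 marked chr3:95675293-95676026 beyond the end of *Mcl1*, PA marked chrX:42116864-42118170 beyond *Xiap*, and SMAD4 marked chrX:42109796-42111145 just past the *Xiap* end. With vehicle, PA marked chr3:95647095-95647886 upstream of *Mcl1*, chr17:27015569-27016535 beyond *Bak1*, and chrX:42055871-42056891 and chrX:42126400-42127367 around *Xiap*, and SMAD2 marked chr7:45456283-45457235 beyond *Bax*. None of these met a peak of the other treatment for the same antibody. Over the genome the same held for 64.5% of PA, 60.8% of SMAD2 and 40.7% of SMAD4 regions with GDF9, and for 51.96% of PA, 46.0% of SMAD2 and 43.1% of SMAD4 regions with vehicle.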

How the data were processed

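The deposited RNA-seq signal is a normalized count per gene from the authors, who aligned with STAR 2.7.11b, counted with featureCounts 2.1.1 and divided each library by a size factor (DESeq2 1.48.2 is named in their processing notes). Every value was a whole multiple of what 1 read is worth in its library (100% of values, within 0.05 reads), a step that lies close to 1 in GDF9 replicate 1. Of 27179 entries, 1314 had no values, and the authors' mean and 3 unnamed columns were left out. Genes with a mean of at least 10 were tested with limma 3.58.1 (R 4.3.3, trend, offset 1, Benjamini-Hochberg over all tested genes), and edgeR 4.0.16 and DESeq2 1.42.0 on recovered reads were alternatives. The design named edgeR for whole read counts and limma for normalized values, which these are. Scripts were tested on simulated data. Nothing in the labels says that libraries were separate cultures, so a p-value here reflects only how these samples vary, which may be technical.

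Peak lists hold signal (coverage scaled to E. coli spike-in reads), as deposited by the authors, who aligned to mm10 with Bowtie2 and called peaks per library with SEACR. The 8 IgG samples were not used here. Overlaps (1 bp or more) used bedtools 2.31.1 and Python 3.11.15. The region shares use the 12531 tested genes matched to RefSeq. With 2 lists a group no test was run on peaks. The strand setting and annotation of the counting were not given in the sources used here. Members and lists were chosen with earlier results of these data known. Named genes are the members, the called genes and the most abundant gene of each list, while further markers, *Malat1* and the 3 printed promoters were picked after values were seen. The alternatives comprised 13 for RNA and 6 for peaks.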

Additional observations from a re-analysis of the deposited data

How the results depend on the processing

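The call of *Birc6* and the absence of a call for the other 9 members held under the 13 RNA alternatives that tested them, 4 of which leave 1 library in a group and take its spread from the other group (*Bcl2l11* and *Pmaip1* fell under a mean of at least 50). Log2 fold changes near 0 reversed for *Pmaip1* (0.021 in edgeR with TMM, -0.27 to 0.24 with single libraries left out), *Bax* (-0.058 to 0.097) and *Bak1* (-0.0092 to 0.060). Without a filter on low values, 161 genes were called higher, 26 lower and 1 other apoptosis gene higher, with more genes tested (18184). DESeq2 called 125 higher, 16 lower and 0 other apoptosis genes higher. With single libraries left out, genes called ranged from 194 to 365 higher and 21 to 218 lower, and other apoptosis genes from 1 to 2 higher and 0 to 1 lower. The replicate numbers are only shared numbers (correlation of deviations 0.005), and with the replicate block 393 genes were called higher, 142 lower and 1 other apoptosis gene lower.

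In Smad3PA cells, members with a SMAD region numbered 1 with GDF9 and 0 with vehicle within 3 kb of a start and 6 with GDF9 and 6 with vehicle within 50 kb. With the strongest 50% of each list, or 50% of both peaks shared, 2 had one with GDF9 and 3 with vehicle. With 1 replicate alone the count was 10 with either treatment, from 10 to 10, so these counts rest on asking for both replicates. The cause of the other shifts was not tested. Low reads limit *Bcl2l11* and *Pmaip1*.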
